A study of Mus musculus with 2 samples.

Results

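The genes described here are 50 genes of the cell cycle and of DNA replication, out of 52366 genes in the count table. They were taken as a list of named genes in 4 phase groups. There were 9 G1 cyclins and kinases, 14 genes of S phase (origin licensing, replication and nucleotide supply), 19 genes of mitosis and 8 checkpoint genes. All 50 were found in the table by their mouse symbols.

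The samples were mouse pseudoblastocysts, which are embryos with a blastocyst-like cavity, each sequenced on its own by CEL-Seq2, a method that reads the 3′ ends of transcripts and labels each captured molecule with a unique molecular identifier (UMI). All embryos came from oocytes of B6D2F1 females aged 8 to 9 weeks fertilised in vitro with ICR sperm, all had the zona pellucida removed, and all were grown in culture to 96 hours post insemination (hpi). Zygotes isolated at 5 hpi gave the 1C pseudoblastocysts, and single blastomeres isolated from 2-cell embryos at 24 hpi gave 2CB, from 4-cell embryos at 48 hpi 4CB, and from 8-cell embryos at 48 hpi 8CB. Each of the 4 stages had 6 embryos, and the sources used here do not say which blastomeres were sisters or whether a pseudoblastocyst held an inner cell mass. The embryos were deposited as 2 mixed samples of 12, here called pools, one with the 1C and 8CB embryos and the other with the 2CB and 4CB embryos. Any difference between the 2 pools therefore cannot be told apart from a difference in how the pools were made, whereas 8CB against 1C and 4CB against 2CB are comparisons inside 1 pool.

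Cyclins are short-lived proteins that switch on cyclin-dependent kinases in turn: D-type cyclins with Cdk4 and Cdk6 and E-type cyclins with Cdk2 in G1 and at entry into S phase, A-type cyclins in S and G2, and B-type cyclins with Cdk1 in mitosis. Licensing factors load the Mcm helicase onto origins in G1, and checkpoint kinases hold the cycle when DNA is damaged or when chromosomes are not attached to the spindle. The length of the gap phases differs between the cleavage divisions of the mouse embryo.

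The embryos held between 70941 and 1507471 UMIs, and between 6905 and 14880 genes with a UMI. Depth differed between the pools, with a mean of 554855 UMIs (median 388686) for 2CB and 4CB and 246044 (median 313283) for 1C and 8CB. The mean number of genes with a UMI was 12100 and 9674.5. The 50 genes took between 0.528% and 1.05% of the UMIs of an embryo, 75922 UMIs in all, and between 40 and 50 of them had at least 1 UMI in a given embryo. The deepest 2CB embryo (replicate 2) and the deepest 4CB embryo (replicate 4) also held the highest shares of their stages, 0.991% and 1.05%. Levels are given as CPM, the share of a gene in the UMIs of the embryo in parts per 1000000 after TMM scaling. CPM are compared between embryos for 1 gene at a time, since they are not adjusted for transcript features. In whole embryos, fewer cells of a type and less RNA per cell cannot be told apart.

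Promoters of cell cycle genes are known for 3 short motifs, so promoter sequence is shown first for 5 genes that stood on different sides of the comparison between pools. E2F factors bind sites that include TTCCCGC and TTGGCGC, the NF-Y factor binds CCAAT, and the DREAM and MuvB complexes bind the cell cycle homology region, CHR, here searched as TTTGAA. The sequences are the RefSeq bases next to the start of transcription (build GRCm38.p6), 5′ to 3′ on the strand of the gene, at most 250 bases and shortened where they would run into an annotated untranslated region. Capitals mark matches on either strand, and the 5 genes were chosen after their values were seen. Ccne1 is at chr7:38107535-38107740 (minus strand), Cdk2 at chr10:128705052-128705179 (minus), Cdc25a at chr9:109875329-109875578 (plus), Cenpf at chr1:189688087-189688336 (minus) and Aurka at chr2:172370571-172370680 (minus).
Ccne1: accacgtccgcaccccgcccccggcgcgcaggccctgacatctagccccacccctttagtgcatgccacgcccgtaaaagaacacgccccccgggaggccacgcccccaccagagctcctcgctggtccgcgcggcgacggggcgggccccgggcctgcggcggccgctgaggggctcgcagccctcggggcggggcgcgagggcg
Cdk2: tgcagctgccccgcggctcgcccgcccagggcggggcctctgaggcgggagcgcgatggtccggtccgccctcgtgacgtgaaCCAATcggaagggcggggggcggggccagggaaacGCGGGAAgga
Cdc25a: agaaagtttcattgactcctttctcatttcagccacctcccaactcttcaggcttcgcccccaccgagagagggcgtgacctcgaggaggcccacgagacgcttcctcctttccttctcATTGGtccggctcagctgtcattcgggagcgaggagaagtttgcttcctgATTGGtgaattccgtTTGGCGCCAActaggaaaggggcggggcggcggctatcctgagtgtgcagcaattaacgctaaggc
Cenpf: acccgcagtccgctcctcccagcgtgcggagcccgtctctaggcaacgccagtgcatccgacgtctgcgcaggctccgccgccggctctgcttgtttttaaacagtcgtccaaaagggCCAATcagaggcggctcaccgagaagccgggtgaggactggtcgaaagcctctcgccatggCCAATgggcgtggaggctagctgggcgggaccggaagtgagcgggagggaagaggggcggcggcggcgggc
Aurka: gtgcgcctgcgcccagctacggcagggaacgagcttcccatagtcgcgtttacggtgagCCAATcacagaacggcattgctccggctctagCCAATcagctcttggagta

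Cdk2 and Cdc25a carried both CCAAT and an E2F site in these stretches, and went in opposite directions between pools, as described below. In Cdc25a the E2F letters TTGGCGC were read on both strands and overlapped by some bases. Cenpf and Aurka each carried a pair of CCAAT boxes and likewise went in opposite directions. The letters searched do not occur in the stretch of Ccne1.

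Over whole windows of 300 bases (250 before to 50 after the start), a RefSeq promoter was found for 40 of the 50 genes, and 1 promoter a gene was used, the one nearest the annotated start. CCAAT was in 29 of the 40 windows (72.5%), against 37.4% of all 32851 promoters of that length. An E2F site was in 15 of the 40 (37.5%), against 6.81% of all promoters, and CHR was also in 15 (37.5%), against 17.9%. The motifs were spread by phase. CHR was in 10 of 15 mitosis windows and in none of 6 G1 windows, whereas an E2F site was in 7 of 12 S phase windows and in 4 of 15 mitosis windows. By direction between pools, CCAAT was in 9 of 9 windows of genes called higher and in 6 of 8 of genes called lower, CHR in 4 of 9 and 3 of 8, and an E2F site in 5 of 9 and 2 of 8. Among 18 windows of genes that were tested and not called, CCAAT was in 11, CHR in 7 and an E2F site in 8. A match is a description of letters, not of binding.

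Between the pools, the 50 genes did not move as a block. Of the 42 genes with enough UMIs to test, 10 were higher and 10 were lower in 2CB and 4CB than in 1C and 8CB pseudoblastocysts, and 22 were not called (edgeR's quasi-likelihood test, adjusted p below 0.1). That is 20 of 42 genes, or 47.6%, beside 55.3% of all 5940 genes tested, of which 31.3% were higher and 24% lower. The median log2 fold change was 0.07 over the 42 genes and 0.12 over all genes tested. Each phase group was split: 1 gene higher and 2 lower of 5 in G1, 4 and 3 of 14 in S phase, 4 and 4 of 16 in mitosis, and 1 and 1 of 7 in the checkpoint group. Of the 20 calls, 10 were kept in all 32 alternative fits, 3 of them higher (Cdk2, Cenpf and Bub3) and 7 lower (Ccne1, Cdc25a, Ccna2, Aurka, Tpx2, Cenpa and Chek2).

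**Figure D1:**
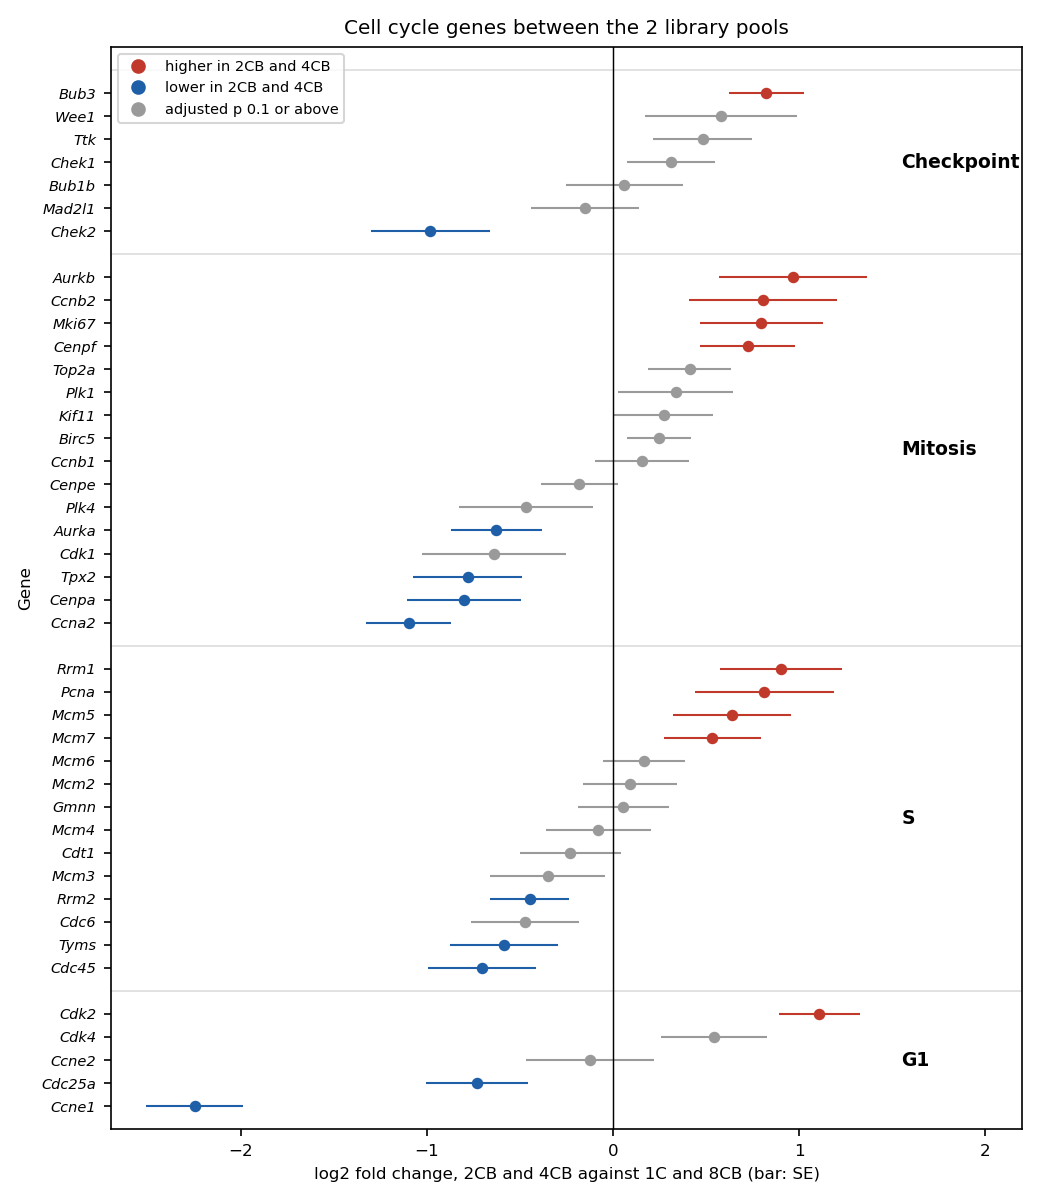
The log2 fold change of each of the 42 tested genes between the pools, 2CB with 4CB over 1C with 8CB (horizontal axis, bars are standard errors), with genes on the vertical axis in their phase groups. Genes called higher (red, 10) and lower (blue, 10) occur in every group, and Ccne1 at −2.25 lies farthest from 0.

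Trophectoderm markers moved between the same pools. Of 15 such markers, 12 were higher and 2 lower in 2CB and 4CB, and their summed level ran from 797 to 1163 CPM for 1C, 821 to 1326 for 8CB, 3577 to 6636 for 2CB and 3401 to 7097 for 4CB. Elf5 had no UMI in any 1C embryo, nor Gata2 in any 8CB embryo. Of 8 tested primitive endoderm markers 6 were higher and 1 lower, with a summed level of 743 to 1206 CPM for 1C, 716 to 1291 for 8CB, 1075 to 2953 for 2CB and 931 to 2180 for 4CB. In 1C embryos Sox7, Foxa2 and Lama1 had no UMI, and in 8CB embryos Sox17, Sox7 and Foxa2. Of 8 tested markers of the inner cell mass 4 were higher and 4 lower, with sums of 1422 to 2025 CPM for 1C, 1445 to 3043 for 8CB, 1163 to 2762 for 2CB and 1142 to 2744 for 4CB. Fgf4, Prdm14 and Spp1 had no UMI in 1C. Of 10 cumulus cell markers 1 was tested and was higher, at sums of up to 55.2 CPM for 1C, 31.4 for 8CB, 78.0 for 2CB and 165 for 4CB, with 8 of the 10 at 0 in each stage. The part of cell type makeup in the differences below was not tested.

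In G1, Ccne1 and its partner kinase Cdk2 went in opposite directions. Ccne1 (ENSMUSG00000002068.16, chr7:38097984-38107534) encodes cyclin E1, which drives entry into S phase. Its lowest, median and highest levels were 265, 306 and 509 CPM for 1C and 252, 561 and 927 CPM for 8CB, but 29.0, 80.9 and 127 CPM for 2CB and 30.0, 126 and 159 CPM for 4CB. Every 2CB and 4CB embryo was below every 1C and 8CB embryo. No other of the 42 genes had sides that did not overlap, and over all genes 2.17% had all 2CB and 4CB embryos lower and 3.48% had all of them higher. The log2 fold change was −2.25 (SE 0.26, adjusted p = 4.42e-08), a 4.75-fold lower level.

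Cdk2 (ENSMUSG00000025358.16, chr10:128697939-128705031), the kinase that cyclin E activates, was higher in 2CB and 4CB. Its lowest, median and highest levels were 120, 128 and 205 CPM for 1C, 94.4, 143 and 295 for 8CB, 289, 355 and 762 for 2CB and 188, 301 and 456 for 4CB. All 2CB embryos were above all 1C embryos, while 4CB overlapped both 1C and 8CB at its lower end. The difference between pools was 1.11 on the log2 scale (SE 0.22, adjusted p = 0.000116), and 0.92 without the high 2CB replicate 2 (adjusted p = 0.000635). Cdk2 overlaps Pmel on the opposite strand, which had 95 UMIs in all against 3555 for Cdk2, and the strand setting of the counting was not given in the sources used here.

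Cdc25a, the phosphatase that activates Cdk2, was lower, at −0.73 (SE 0.27, adjusted p = 0.0274), with medians of 115 CPM for 1C, 115 for 8CB, 61.9 for 2CB and 63.9 for 4CB. The highest 2CB level (75.5 CPM) was below both of the other pool's medians, but the highest 4CB level (167 CPM) was not. The second E-type cyclin, Ccne2, did not pass, with stage medians from 18.6 to 34.3 CPM and a log2 fold change of −0.12 (SE 0.34, adjusted p = 0.796). Cdk4, a partner of D-type cyclins, had medians of 92.9 CPM for 1C, 107 for 8CB, 141 for 2CB and 139 for 4CB. Its log2 fold change of 0.54 (SE 0.28, adjusted p = 0.115) did not pass, though it did with DESeq2 (0.59).

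The D-type cyclins and Cdk6 were too sparse to pass the filter on low counts. Over all 24 embryos Ccnd1 had 31 UMIs, Ccnd2 35, Ccnd3 160 and Cdk6 184. When all 23171 genes with any UMI entered the test, a step chosen after seeing the data, Cdk6 was higher in 2CB and 4CB (log2 fold change 2.82, SE 0.63, adjusted p = 0.000114). It had 1 UMI for 1C, 14 for 8CB, 115 for 2CB and 54 for 4CB, and was detected in 1, 4, 6 and 5 of 6 embryos. These totals are not adjusted for depth, and 41 of the 54 came from 4CB replicate 4. The medians were 0, 5.07, 32.6 and 6.33 CPM in the same order. In that fit Cdk6 was higher for 2CB against 1C (4.96, SE 0.998, adjusted p = 2.81e-05). It was not called for 8CB against 4CB (−0.67, SE 0.71), nor within the pool for 8CB against 1C (3.21, SE 1.13, adjusted p = 0.308). Ccnd3 was lower in the same fit (−0.999, SE 0.44, adjusted p = 0.0964), but it overlaps Bysl on the opposite strand, which had 850 UMIs, so its level is uncertain. Ccnd1 (−0.04) and Ccnd2 (−1.15) did not pass, with adjusted p of 0.9998 and 0.371. None of the 4 genes was called within a pool. Of the other genes left out for low counts, the Cdk-activating phosphatase Cdc25b was higher (1.81, SE 0.58, adjusted p = 0.0134). In the same fit it was lower for 8CB against 4CB (−2.54, SE 0.89, adjusted p = 0.0464). It was not called for 2CB against 1C (1.08, SE 0.75, adjusted p = 0.385). Its means were 8.86, 1.93, 18.0 and 17.8 CPM for 1C, 8CB, 2CB and 4CB. Cdc25c (82 UMIs), the anaphase activator Cdc20 (40 UMIs) and the spindle checkpoint kinase Bub1 (200 UMIs) did not pass. Ccnd1, Cdc25c and Cdc20 also overlap a gene with more UMIs on the opposite strand (LTO1 with 145, Gm3550 with 192 and Elovl1 with 331), so their levels are likewise uncertain.

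**Figure D2:**
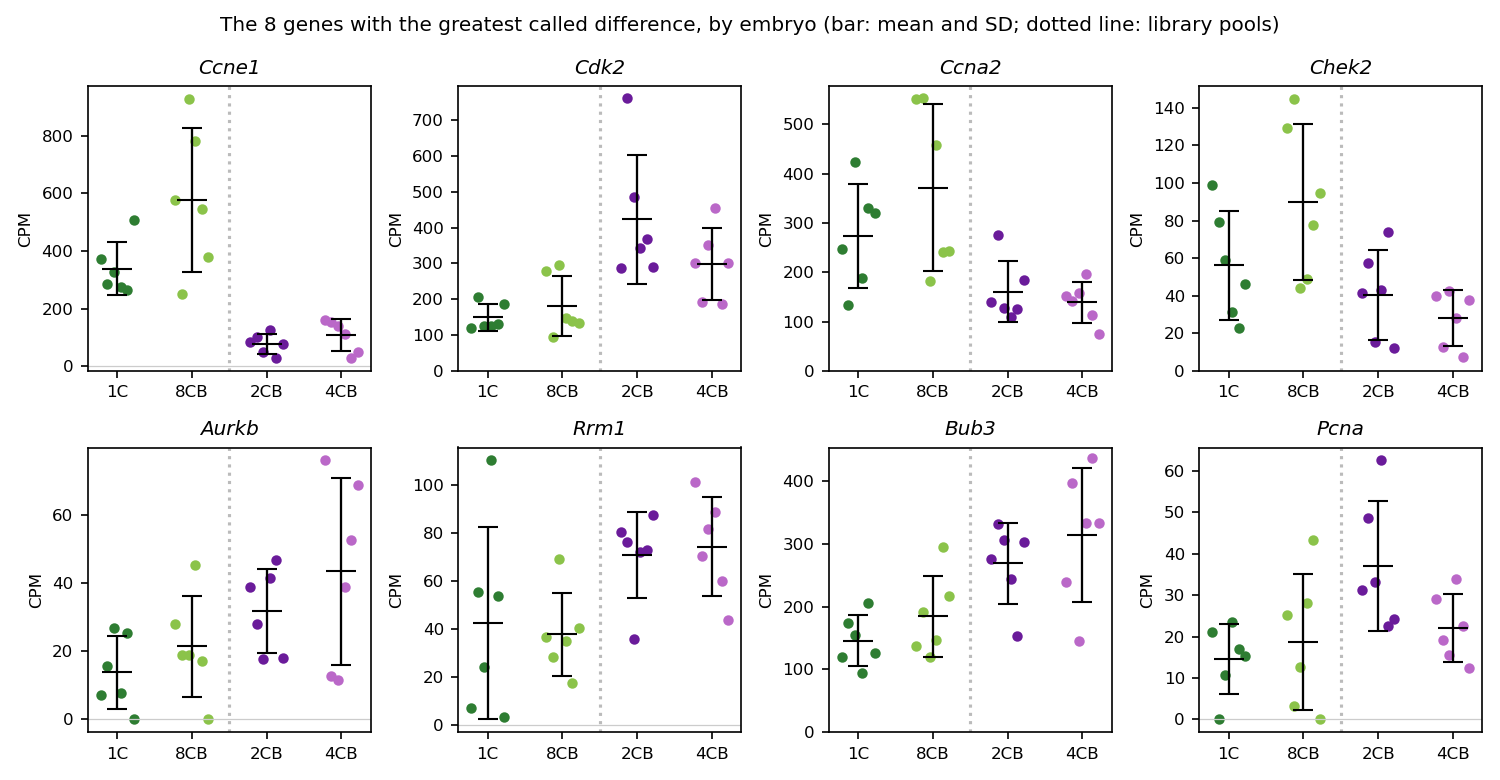
Level in CPM (vertical axes, from 0) of the 8 genes with the greatest called log2 fold change in each of 24 embryos, by stage (horizontal axis), with the mean and SD over 6 embryos and a dotted line between the pools. Ccne1 alone separates the pools fully, with its highest 2CB or 4CB level at 159 CPM and its lowest 1C or 8CB level at 252 CPM.

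Of the S phase genes 4 were called higher and 3 lower, or 50% of 14, beside 55.3% of all genes tested. None of these 7 calls held when all embryos were thinned to the lowest total of UMIs, a step that keeps fewer UMIs. The test of any difference among the 4 stages called 0 of the 14 genes, beside 47.1% of all genes tested. Ribonucleotide reductase makes deoxynucleotides from a large subunit, Rrm1, and a small one, Rrm2. Rrm1 was higher in 2CB and 4CB (log2 fold change 0.90, SE 0.33, adjusted p = 0.0237) and Rrm2 lower (−0.45, SE 0.21, adjusted p = 0.083). The levels of Rrm1 ran from 3.08 over a median of 38.9 to 110 CPM for 1C, from 17.3 over 35.8 to 69.1 for 8CB, from 35.8 over 74.5 to 87.6 for 2CB and from 43.8 over 76.0 to 101 for 4CB. Those of Rrm2 ran from 229 over 512 to 545 CPM for 1C, from 285 over 403 to 472 for 8CB, from 133 over 308 to 444 for 2CB and from 125 over 321 to 469 for 4CB. The stages overlapped in both genes. The call of Rrm1 was lost on thinning, and that of Rrm2 in 6 of 8 settings other than leaving out 1 embryo, thinning and DESeq2 (−0.40) among them.

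Pcna, the sliding clamp of the replication fork, was higher (0.81, SE 0.37, adjusted p = 0.0718), at medians of 16.2 CPM for 1C, 18.9 for 8CB, 32.2 for 2CB and 20.9 for 4CB. The highest levels were 23.6 CPM for 1C, 43.2 for 8CB, 62.5 for 2CB and 33.9 for 4CB, so the stages overlapped, and 1 embryo of 1C and 1 of 8CB had none. Its call was lost in 12 of 24 fits that left out 1 embryo. Of the 6 Mcm genes, whose products form the helicase, Mcm5 (0.64, SE 0.32, adjusted p = 0.0969) and Mcm7 (0.53, SE 0.26, adjusted p = 0.0886) were higher, each losing its call in 18 of the 24 fits. Mcm2, Mcm3, Mcm4 and Mcm6 lay between −0.35 and 0.17 and did not pass. Differences between the 6 genes were not tested. The reads of Mcm7 share sequence with the pseudogene Gm5487 (32.7% of 50-base words of its 3′ end) and its gene overlaps Cops6 on the opposite strand, so its level is uncertain.

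Mcm6, 1 of these helicase subunits, had levels of 89.4, 112 and 213 CPM (lowest, median and highest) for 1C, 97.4, 124 and 225 for 8CB, 113, 148 and 218 for 2CB and 44.8, 142 and 221 for 4CB, all overlapping. For Mcm2 the medians were 126, 148, 139 and 114 CPM for 1C, 8CB, 2CB and 4CB. Cdc45, which joins the helicase at firing origins, was lower (−0.71, SE 0.29, adjusted p = 0.045), with medians of 60.6, 79.0, 42.9 and 46.8 CPM in the same order. Its call was lost on thinning, and it overlaps Ufd1 (2047 UMIs) on the opposite strand. Tyms, which makes thymidylate, was lower (−0.59, SE 0.29, adjusted p = 0.093), and its call was lost in 7 of 24 fits. The licensing factors Cdc6 (−0.47) and Cdt1 (−0.23) and the licensing inhibitor Gmnn (0.05) did not pass.

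Mitosis genes split as well. Ccna2 (ENSMUSG00000027715.9, chr3:36564865-36572150) encodes cyclin A2, which acts in S phase and at entry into mitosis. Its lowest, median and highest levels were 134, 284 and 424 CPM for 1C, 182, 351 and 554 for 8CB, 109, 134 and 275 for 2CB and 75.2, 146 and 196 for 4CB. The 2CB and 4CB embryos lay mostly below the others, with an overlap at the low end of 1C and 8CB. The log2 fold change was −1.10 (SE 0.23, adjusted p = 0.000208), a 2.14-fold lower level. Its B-type counterparts went otherwise: Ccnb1 was at 0.15 (SE 0.25, adjusted p = 0.636), and Ccnb2 was higher by 0.81 (SE 0.40, adjusted p = 0.0957).

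The call of Ccnb2 depended on single embryos. Its lowest, median and highest levels were 0, 13.4 and 58.6 CPM for 1C, 13.5, 23.5 and 59.7 for 8CB, 18.2, 33.9 and 127 for 2CB and 12.5, 42.3 and 75.4 for 4CB, all overlapping. It was lost in 20 of the 24 fits that left out 1 embryo, and fell to 0.43 (adjusted p = 0.379) without 2CB replicate 2. Ccnb1 shares 21.8% of the 50-base words of its 3′ end with the pseudogene Ccnb1-ps and 22.3% with Gm12856. The mitotic kinase Cdk1 was at −0.64 (SE 0.39, adjusted p = 0.175), with levels between 13.5 and 345 CPM.

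The 2 Aurora kinases were called in opposite directions. Aurka, which acts at centrosomes and spindle poles, was lower (−0.63, SE 0.25, adjusted p = 0.036), and Aurkb, the kinase of the chromosomal passenger complex, higher (0.97, SE 0.40, adjusted p = 0.0461). The medians of Aurka were 215 CPM for 1C, 119 for 8CB, 107 for 2CB and 70.1 for 4CB. The levels of Aurkb ran from 0 over 11.8 to 26.8 CPM for 1C, from 0 over 18.9 to 45.5 for 8CB, from 17.9 over 33.5 to 46.8 in 2CB and from 11.7 over 45.8 to 76.1 for 4CB. Stages overlapped in both, and the call of Aurkb was lost without 4CB replicate 1 (adjusted p = 0.124) and on thinning. Tpx2, which activates Aurka on the spindle, was lower as well (−0.78, SE 0.29, adjusted p = 0.0286). It ranged from 630 over a median of 1503 to 1754 CPM for 1C, from 233 over 1297 to 2162 for 8CB, from 473 over 664 to 1400 in 2CB and from 381 over 476 to 1616 for 4CB. Birc5, a partner of Aurkb in the passenger complex, did not pass (0.25, SE 0.17, adjusted p = 0.237), with medians of 621 CPM for 1C, 759 for 8CB, 945 for 2CB and 740 for 4CB.

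At the centromere, the histone variant Cenpa was lower (−0.80, SE 0.31, adjusted p = 0.0318) and the kinetochore protein Cenpf higher (0.72, SE 0.25, adjusted p = 0.0192). Cenpa had lowest, median and highest levels of 86.7, 179 and 478 CPM for 1C, 40.5, 267 and 539 for 8CB, 136, 158 and 281 for 2CB and 31.3, 109 and 210 for 4CB, which overlapped. The levels of Cenpf were 64.8, 171 and 284 CPM for 1C and 25.9, 68.3 and 113 for 8CB, 89.8, 170 and 217 for 2CB and 95.2, 202 and 263 for 4CB. Its median was lowest for 8CB, with an overlap with every other stage. Across pools, 2CB against 1C gave −0.02 (SE 0.35, adjusted p = 0.972) and 8CB against 4CB −1.47 (SE 0.37, adjusted p = 0.00317). Within the pool, 8CB against 1C gave −1.23 (SE 0.37, adjusted p = 0.239) and was not called, nor was the difference between the step from 1C to 8CB and that from 2CB to 4CB (−1.49, SE 0.51, adjusted p = 0.369).

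Mki67, the Ki-67 protein of the mitotic chromosome surface, was also lowest in 8CB, with medians of 77.8, 26.0, 67.4 and 105 CPM for 1C, 8CB, 2CB and 4CB. The lowest and highest levels were 21.6 and 103 CPM for 1C, 3.14 and 122 for 8CB, 48.1 and 133 for 2CB and 65.2 and 141 for 4CB. It was higher between pools (0.80, SE 0.33, adjusted p = 0.0455), with 0.07 (adjusted p = 0.914) for 2CB against 1C and −1.52 (SE 0.49, adjusted p = 0.0169) for 8CB against 4CB. Its call between pools was lost on thinning. Top2a, which untangles DNA before chromosomes part, did not pass (0.41, SE 0.22, adjusted p = 0.132), at medians of 641, 567, 668 and 681 CPM in the same order, but passed with DESeq2 (0.45). Plk1 (0.34), Plk4 (−0.47), Kif11 (0.27) and Cenpe (−0.18) were not called.

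Among checkpoint genes, Bub3 and Chek2 were called. Bub3 (ENSMUSG00000066979.6, chr7:131560222-131571895) is a subunit of the spindle checkpoint complex. Its lowest, median and highest levels were 94.6, 141 and 206 CPM for 1C, 119, 169 and 294 for 8CB, 153, 289 and 331 for 2CB and 146, 333 and 436 for 4CB. All but the lowest embryo of 2CB and the lowest of 4CB were above the highest of 1C. The log2 fold change was 0.82 (SE 0.20, adjusted p = 0.00118), and Fgfr2, which overlaps it on the opposite strand, had 776 UMIs against 2307 for Bub3. Chek2, a kinase of the DNA damage response, was lower (−0.98, SE 0.32, adjusted p = 0.0122). Its levels ran from 22.6 over 52.6 to 98.7 CPM for 1C, from 44.0 over 86.1 to 145 for 8CB, from 12.1 over 42.4 to 73.9 in 2CB and from 7.51 over 32.8 to 42.7 for 4CB, with the lowest 8CB embryo above the highest 4CB embryo.

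Other checkpoint genes did not pass between pools. Chek1, which acts at stalled forks, had medians of 53.1, 47.0, 49.6 and 61.7 CPM for 1C, 8CB, 2CB and 4CB and a log2 fold change of 0.31 (SE 0.24, adjusted p = 0.29). For Bub1b, the spindle checkpoint protein BubR1, the medians were 34.1, 78.0, 57.8 and 63.3 CPM in the same order, and the log2 fold change was 0.06 (SE 0.32, adjusted p = 0.893). The spindle checkpoint kinase Ttk was at 0.48, Mad2l1 at −0.15, and Wee1, which inhibits Cdk1, at 0.58.

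Summed over all their genes, the S phase, mitosis and G1 groups moved by less than the spread between embryos of 1 stage. That is the spread of single embryos, which is wider than that of a mean, and the sums were not tested. The log2 ratio of the 2CB and 4CB mean to the 1C and 8CB mean was −0.05 for S phase (SD between embryos 0.34) and −0.14 for mitosis (SD 0.42). The G1 sum was at −0.32 (SD 0.39), but 1 gene set its sign: without Ccne1 the ratio was 0.52. That ratio came from means of 627 CPM for 2CB and 4CB and 439 for 1C and 8CB. Of these, Cdk2 alone had means of 423 CPM for 2CB, 298 for 4CB, 149 for 1C and 181 for 8CB. The checkpoint sum moved by more than the spread between embryos, at 0.36 (SD 0.29), but was at 0.04 without Bub3. Over all 50 genes the ratio was −0.11 (SD 0.30), with a mean of 7539 CPM for 1C and 8CB and 7002 for 2CB and 4CB. The mitosis sum ran from 2798 to 6223 CPM for 1C, from 2852 to 6351 for 8CB, from 3650 to 6484 in 2CB and from 2961 to 6915 for 4CB.

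**Figure D3:**
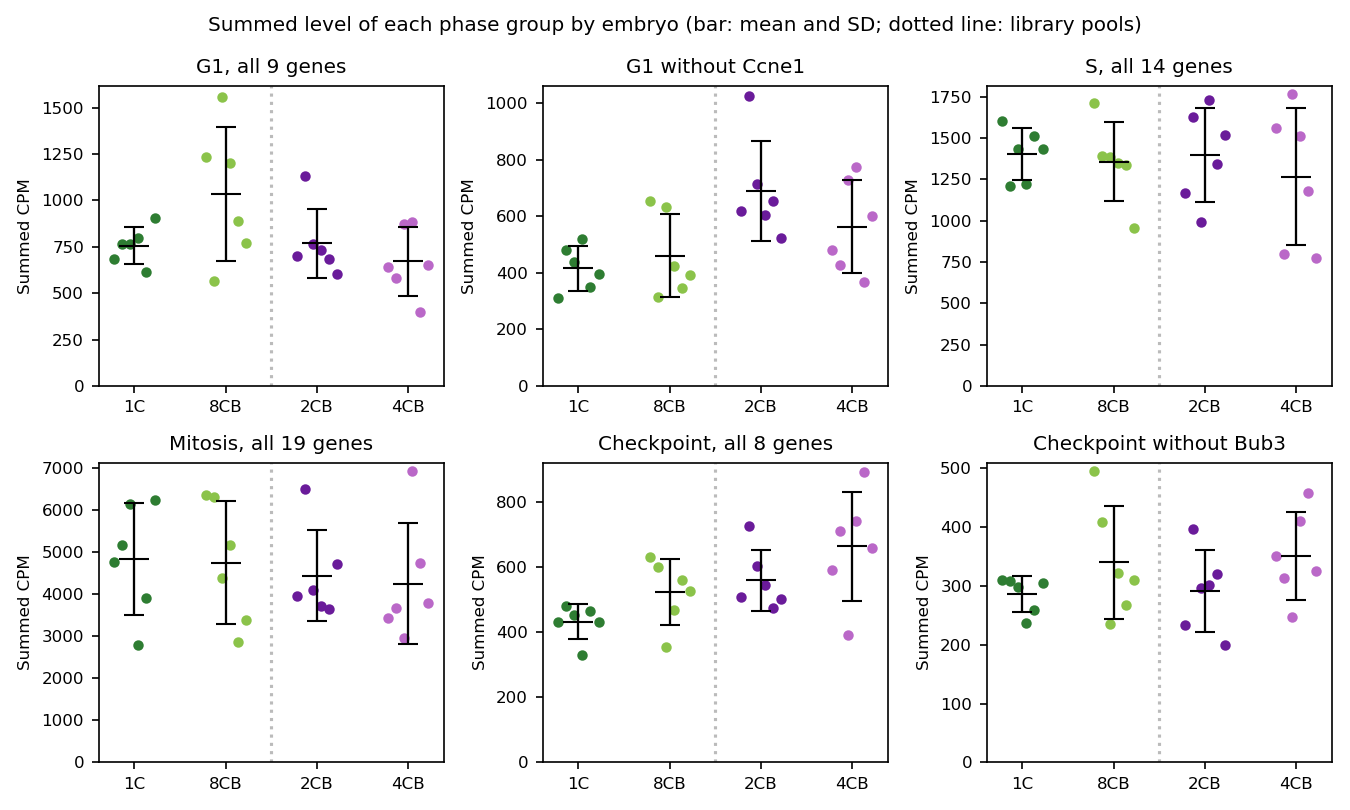
Summed CPM of each phase group (vertical axes, from 0) in each embryo by stage (horizontal axis), with the mean and SD of 6 embryos and a dotted line between the pools. The S phase and mitosis sums overlap across all stages, and the G1 ratio between pools turns from −0.32 to 0.52 on the log2 scale when Ccne1 is left out. Of the G1 sum that is left, Cdk2 alone has means of 423 CPM for 2CB, 298 for 4CB, 149 for 1C and 181 for 8CB.

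The 2 comparisons across pools that set 1 stage against 1 other had 6 embryos a side rather than 12. They gave fewer calls, among the 42 genes and among all genes. Against 1C, 2CB pseudoblastocysts had 4 genes higher (Cdk2, Pcna, Birc5 and Bub3) and 3 lower (Ccne1, Cdc25a and Ccna2) of 42, or 16.7%, beside 41.5% of all genes called (24.1% higher and 17.5% lower). These counts were unsteady, at 1 higher after thinning, at 2 higher and 6 lower without the deepest 2CB and 4CB embryos, and at 2 to 6 higher and 2 to 7 lower when any 1 embryo was left out. Both 8CB and 4CB blastomeres were isolated at 48 hpi, and 8CB had 5 genes higher than 4CB (Ccne1, Cdc45, Ccna2, Cenpa and Chek2) and 5 lower (Cdk2, Cenpf, Mki67, Bub3 and Ttk). That is 23.8% of the 42, beside 40.2% of all genes (17% higher and 23.2% lower). With 1 embryo left out, 4 to 7 were higher and 3 to 6 lower. Ccne1 was at −2.11 (SE 0.37, adjusted p = 6.45e-05) for 2CB against 1C and at 2.39 (SE 0.37, adjusted p = 1.72e-05) for 8CB against 4CB. In a test of any difference among the 4 stages, 8 of the 42 genes were called (Ccne1, Cdk2, Cdc25a, Ccna2, Cenpf, Mki67, Bub3 and Chek2), beside 47.1% of all genes. That count ran from 6 to 13 when any 1 embryo was left out, and was 13 without 2CB replicate 2, 8CB replicate 5 or 8CB replicate 6.

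Within the pools, no gene of the group was called. Between 8CB and 1C the count was 0 of 42, with 0% of all genes called by edgeR and 3 of the 42 at an unadjusted p below 0.05, as were 9.29% of all genes: Cenpf (−1.23, SE 0.37, adjusted p = 0.239), Bub1b (1.06, SE 0.46, adjusted p = 0.47) and Ccne1 (0.77, SE 0.35, adjusted p = 0.498). DESeq2 also called none of the 42. In 4CB against 2CB it was 0 of 42 by both tools, with 0.0337% of all genes called and none of the 42 at an unadjusted p below 0.05, as were 4.41% of all genes. The log2 fold changes of Cdk2 were 0.31 (SE 0.32) for 8CB against 1C and −0.49 (SE 0.30) for 4CB against 2CB, and those of Ccna2 were 0.44 (SE 0.32) and −0.18 (SE 0.32). A test of whether the step from 1C to 8CB differed from that from 2CB to 4CB called none of the 42 and 0% of all genes. In data simulated from these embryos, 10.5% of genes changed by 1 log2 unit were found between 8CB and 1C and 15.5% between 4CB and 2CB, against 54.5% between the pools. For a change of 2 log2 units these shares were 75.5%, 81.5% and 97.5%. Each simulation changed 200 of 5940 genes at once and pooled genes of all levels. The shares therefore need not hold where few genes change or for a gene with few UMIs.

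**Figure D4:**
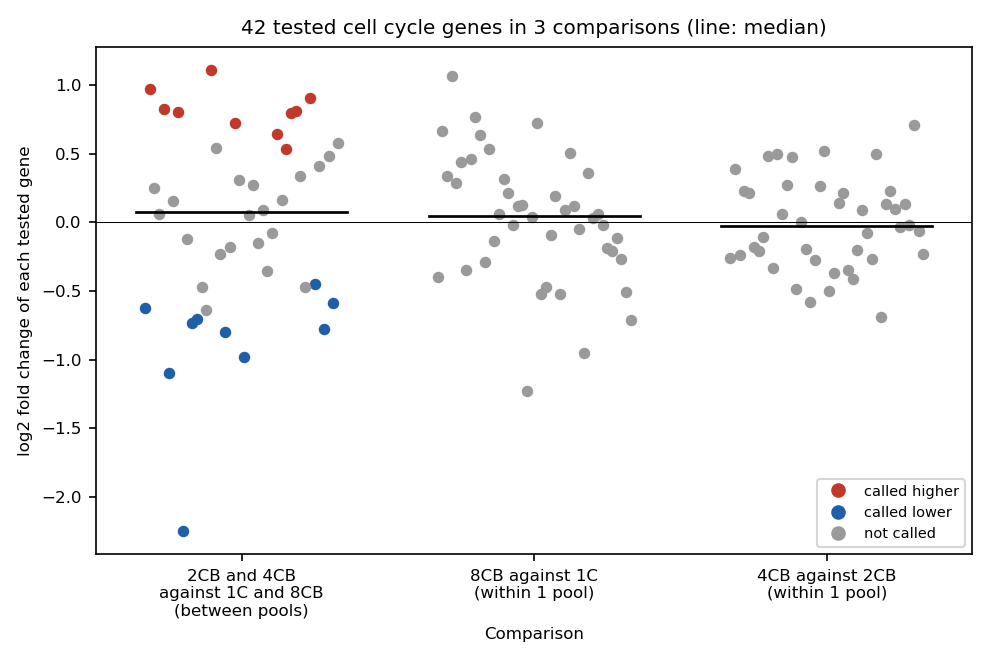
The log2 fold change of the 42 tested genes (vertical axis) in the comparison between the pools and in the 2 comparisons within a pool (horizontal axis), with called genes in red (higher) and blue (lower) and a line at the median. There are 20 called genes between the pools and 0 in either comparison within a pool.

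Of 178 other cell cycle genes in 9 lists, 116 were tested between the pools, 31 were higher in the 2CB and 4CB pool, 31 were lower, and the median log2 fold change was 0.07. The 62 called genes are 53.4% of those tested, near the 55.3% of all genes (31.3% higher and 24% lower). Of the E2F, pocket protein and MuvB factors, which turn cell cycle genes on and off, 3 of 7 tested were higher and none lower, or 42.9% called, below the share over all genes, and too few to read a direction from. The repressive factor E2f8 was at 3.07 (SE 0.54, adjusted p = 2.99e-05), with mean levels of 3.14 CPM for 1C, 4.83 for 8CB, 42.8 for 2CB and 23.9 for 4CB. Rbl1, a pocket protein, was at 2.28 (SE 0.48, adjusted p = 0.000275), with means of 5.43, 8.13, 24.8 and 39.7 CPM in the same order.

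Of the inhibitors of cyclin-dependent kinases, 2 were tested, and they went in opposite directions. Cdkn1a, which encodes p21, an inhibitor of Cdk2, was lower (−2.66, SE 0.49, adjusted p = 4.61e-05). Its lowest, median and highest levels were 512, 778 and 1369 CPM for 1C, 270.0, 950 and 2275 for 8CB, 5.2, 112 and 368 for 2CB and 12.5, 90.3 and 507 for 4CB, so that the lowest 8CB levels overlapped the highest 2CB and 4CB levels, while 1C stood above both. Cdkn2c, an inhibitor of Cdk4 and Cdk6, was higher (1.29, SE 0.52, adjusted p = 0.0428).

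Among genes of origin firing and the fork, 4 were higher and 7 lower of 25, with Timeless, a fork protection factor, at 1.39 and Rpa1, which coats single-stranded DNA, at 1.36. In deoxynucleotide supply 3 were higher and 4 lower of 8, with Dut, which removes dUTP, at 1.26 and Shmt1 at −1.16. The anaphase-promoting complex and its E2 enzymes had 3 higher and 6 lower of 15, the largest changes among them being those of the subunits Anapc10 (−1.45) and Anapc16 (−1.22).

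Cohesin, condensin and separase genes had 7 higher and 3 lower of 21. Esco2, which acetylates cohesin in S phase, was at −2.11 (SE 0.27, adjusted p = 2.22e-07), with means of 184 CPM for 1C, 110 for 8CB, 27.6 for 2CB and 38.2 for 4CB. Stag2, a cohesin subunit, was at −1.78. Kinetochore, spindle and cytokinesis genes had 8 higher and 6 lower of 27, with the cytokinesis motor Kif14 at 1.96 and the centrosomal kinase Nek2 at −1.32. DNA damage sensing had 2 higher and 4 lower of 11, with the kinase Atm at −1.16 and the histone H2afx at −1.06. None of these 116 genes was called within a pool by edgeR, while 12 had an unadjusted p below 0.05 for 8CB against 1C, where 9.29% of all genes did, and 4 for 4CB against 2CB, where 4.41% did.

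**Figure D5:**
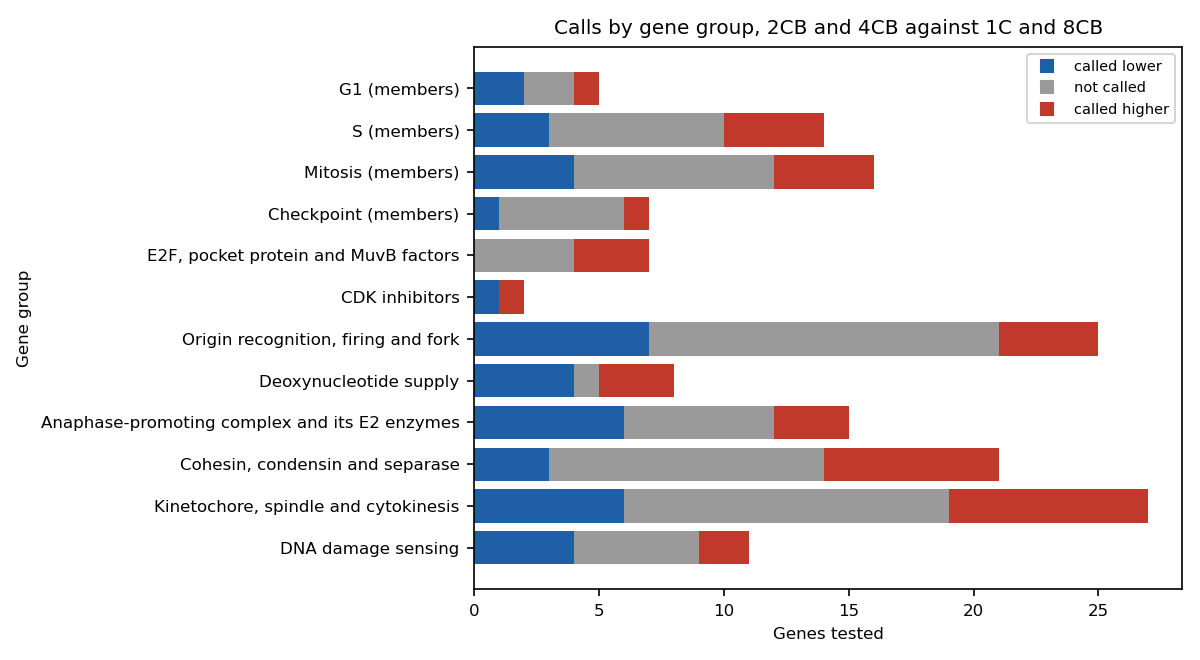
Number of tested genes (horizontal axis) called lower (blue), not called (grey) or called higher (red) in the pool of 2CB and 4CB, for the 4 phase groups and for 8 lists of other cell cycle genes (vertical axis). Of the 116 other genes tested, 31 are higher and 31 lower, 53.4% in all, beside 55.3% of all genes tested.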

How the data were processed

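The authors built CEL-Seq2 libraries, aligned reads to GRCm38 with HISAT2 2.2.6, counted with HTSeq 0.6.1 and used DESeq2 1.10.1. The deposited values are UMI counts per gene and embryo, not normalized. The annotation release and strand setting are not given in the sources used here. The UMI length is not given either. The 6 bases usual for CEL-Seq2 would allow 4096 UMIs, and single counts reached 53029, so the values may not all be distinct UMIs. They are called UMIs here as in the study, and the highest value among the 50 genes was 2098. Columns named for the 4 blastocyst stages were used. A further 24 columns carry names of no listed sample and were not used.

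Symbols came from GENCODE M21 (51633 of 52366 IDs matched). The 50 genes, the other gene lists and the tests were chosen with earlier results of these data known. Of the list's genes, those with the 12 largest called log2 fold changes between pools, those called within a pool or in the interaction, and the 3 with the highest mean level of each phase group were described in full, with the 2 largest called changes of each other list. Other members were added where a group was described.

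Counts were tested in edgeR 4.0.16 (R 4.3.3) with filterByExpr by stage, TMM scaling (factors 0.936 to 1.05) and the quasi-likelihood test on 1 mean per stage over all 24 embryos. Benjamini-Hochberg adjustment covered all 5940 tested genes, with a threshold of 0.1, the study's. SE is the log2 fold change over the square root of F. Separate cultures or donors are not stated for the embryos of a stage, so p-values measure the spread between these embryos, whose pairwise correlations within a stage were 0.597 to 0.856. No pair was a duplicate. The test was checked on simulated counts. Alternatives were DESeq2 1.42.0, its size factors, no filter, thinning to 70941 UMIs, a floor of 5 UMIs in 12 embryos, a threshold of 0.05, a block on replicate number, fits on 1 pool, leaving out each embryo, and total scaling. Promoters are RefSeq sequences in GRCm38.p6.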

Additional observations from a re-analysis of the deposited data

Results flagged for a closer look

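In 100 groups of 6 embryos (20 described genes, the 4 phase sums and the sum of all 50 genes, in 4 stages), 11 had 1 embryo whose gap to its nearest neighbour was over 0.625 of the group's whole range. Chance flags about 1 in 20 groups. Of the 11, 4 came from the deep 2CB replicate 2: Ccnb2 at 127 CPM (next highest 41.7), Tpx2 at 1400 CPM (next 746), the G1 sum at 1129 CPM and the mitosis sum at 6484 CPM. Its sum over all 50 genes, 9971 CPM, was the fifth. The deep 4CB replicate 4 was apart for Top2a at 1362 CPM (next 714) and for the sum of all 50 genes at 10054 CPM (next 7196). The 4 others were Rrm1 at 35.8 CPM in 2CB replicate 3, Mki67 at 133 CPM in 2CB replicate 6, Bub1b at 205 CPM in 8CB replicate 1 and the checkpoint sum at 331 CPM in 1C replicate 4. Without these 2 deep embryos, an alternative chosen after seeing the data, 19 genes were called between pools and 16 of them were among the 20. Why both deep embryos hold high sums was not tested.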

How the results depend on the processing

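Between the pools, the 20 called genes (10 higher and 10 lower) became 10 when all embryos were thinned to the lowest total, 3 higher and 7 lower. At an adjusted p of 0.05 they became 14, of which 6 were higher and the rest lower. Of 2CB against 1C, 4 higher became 1 (thinned) and 2 (without the deepest 2CB and 4CB embryos), and 3 lower became 6 (without the deepest). For 8CB against 4CB, 5 lower became 3 with no filter and 3 at 0.05. Without its most abundant gene the G1 ratio went from −0.32 to 0.52 and the checkpoint ratio from 0.36 to 0.0369. Leaving out 1 embryo gave 6 to 10 higher and 9 to 12 lower between pools, 2 to 6 higher and 2 to 7 lower for 2CB against 1C, 4 to 7 higher and 3 to 6 lower for 8CB against 4CB, 6 to 13 for any difference, and 0 to 0 within pools and for the interaction. The 6 higher between pools came without 2CB replicate 3, 2CB replicate 4 or 4CB replicate 1. The 2 higher for 2CB against 1C came without 2CB replicate 4, and 5 to 7 lower came in 14 fits, those without 1C replicate 4 or 5, 2CB replicate 2 or 6, any 4CB embryo or 8CB replicate 3, 4, 5 or 6. The 3 lower for 8CB against 4CB came without 4CB replicate 1 or 2 or 8CB replicate 4 or 5, and the 13 for any difference without 2CB replicate 2 or 8CB replicate 5 or 6. Thinning keeps fewer UMIs. For the other changes the cause was not tested.

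DESeq2 called 22 genes between the pools, 19 of them among the 20, and its size factors in edgeR 21, with 18 among the 20. With replicate number as a block, 15 were called, all among the 20, and Mcm5, Mcm7, Rrm2, Tyms and Ccnb2 were lost, Ccnb2 at 0.78 and Rrm2 at −0.46. The deviations of embryos with the same number had a mean correlation of −0.01 over 36 pairs (−0.22 to 0.20), so the numbers are not known to pair embryos. No count changed sides within a pool under any setting.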

Other observations

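The ratio of the summed S phase level to the summed mitosis level, a value within each embryo that TMM scaling does not alter, had means of 0.310 ± 0.0903 (SD, n = 6) for 1C, 0.303 ± 0.0870 for 8CB, 0.324 ± 0.0832 for 2CB and 0.324 ± 0.163 for 4CB. The stages overlapped, and 4CB had both the lowest (0.206) and the highest (0.596) value. Of 8 oocyte and maternal cell cycle factors none had enough UMIs to test. Over 24 embryos Mos, the oocyte kinase that holds the second meiotic arrest, had 12 UMIs (mean 0.728 CPM), Btg4 had 6 (mean 0.905 CPM) and Ccno had 0.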
